A study of Homo sapiens with 4 samples.

Results

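Translation factor and aminoacyl-tRNA synthetase genes were followed through the APC ChIP-seq peak lists of HCT-116 cells. Members were the protein-coding genes to which the deposited annotation assigned at least 1 peak and whose symbol began with EIF or EEF and a digit, GSPT or PABPC, or was ETF1, EPRS or a synthetase symbol ending in ARS or ARS2. There were 51 such genes among 5031 protein-coding gene names in both lists, 40 in replicate 1 and 37 in replicate 2. They held 50 of the 6263 peaks of replicate 1 and 47 of the 8393 peaks of replicate 2.

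All 4 libraries came from HCT-116, a colon carcinoma cell line of the genotype APC wild-type, CTNNB1ΔSer45. The deleted serine is a site through which β-catenin is marked for destruction, so these cells keep their WNT target genes switched on with APC intact. The study prepared 2 APC ChIP libraries, with a polyclonal antibody raised to the last 50 residues of the protein, and 2 libraries of pre-cleared input, from cells fixed with 1% formaldehyde for 10 min at 24 h after seeding. Chromatin was sonicated and digested with micrococcal nuclease, and peaks were called in each ChIP against its own input. Input was the only control, without ChIP from APC-depleted cells or with an unrelated antibody, so a peak marks chromatin recovered with this antibody. The lists give the position and width of each peak but no read counts, so depth is unknown and intervals below (95%, Clopper-Pearson) cover counting error only.

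Protein synthesis starts when initiation factors (eIFs) load the initiator tRNA onto the small ribosomal subunit, open the capped 5′ end of the mRNA and find the start codon. Elongation factors (eEFs) then deliver aminoacyl-tRNAs and move the ribosome along, release factors free the finished chain, and tRNA synthetases charge each tRNA with its amino acid, in separate sets for the cytosol and mitochondria. Nearly all of these genes are used by every growing cell, and MYC, a target of WNT signaling in colon cancer cells, is known to act at many of their promoters through the E-box CACGTG. The study read the same letters as the binding site of USF1 and USF2, so a match does not name the factor.

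The deposited regions fell into promoter regions and a few distant ones, and the windows that follow show what these stretches of DNA hold. Each is the 300 bp around the centre of the replicate 1 peak of a shared region (defined below), from the plus strand of hg19. Capitals mark matches, on either strand, to CACGTG (E-box), GGGCGG (SP1), CCGGAAG (ETS), the NRF1 site, TGANTCA (AP-1), TCAAAG (TCF7L2) or AAGATGGC (YY1), so that a site on the minus strand appears as its reverse complement. The first 3 are promoters with an E-box, TARS2 and EEF1A1 are promoters without one, and the last 2 lie far from any start site of the gene named.
EIF4G1 (promoter, chr3:184032175-184032474): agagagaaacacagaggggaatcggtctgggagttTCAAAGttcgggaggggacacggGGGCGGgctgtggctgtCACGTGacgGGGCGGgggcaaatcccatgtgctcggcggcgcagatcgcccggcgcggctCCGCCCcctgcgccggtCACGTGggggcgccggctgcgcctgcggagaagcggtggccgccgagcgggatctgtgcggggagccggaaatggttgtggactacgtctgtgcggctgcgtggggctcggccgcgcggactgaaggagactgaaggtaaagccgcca
EIF5A2 (promoter, chr3:170626443-170626742): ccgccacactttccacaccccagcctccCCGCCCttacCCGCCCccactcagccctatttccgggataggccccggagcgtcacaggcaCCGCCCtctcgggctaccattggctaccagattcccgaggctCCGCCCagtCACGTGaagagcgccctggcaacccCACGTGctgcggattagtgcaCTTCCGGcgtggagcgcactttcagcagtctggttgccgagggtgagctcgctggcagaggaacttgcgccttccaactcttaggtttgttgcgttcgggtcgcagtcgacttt
EIF3A (promoter, chr10:120840278-120840577): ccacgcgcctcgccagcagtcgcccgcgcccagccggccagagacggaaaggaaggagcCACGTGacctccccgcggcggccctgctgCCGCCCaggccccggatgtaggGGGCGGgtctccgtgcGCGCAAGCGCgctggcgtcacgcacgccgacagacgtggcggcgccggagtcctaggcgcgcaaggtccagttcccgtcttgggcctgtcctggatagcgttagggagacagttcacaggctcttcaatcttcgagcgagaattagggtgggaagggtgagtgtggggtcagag
TARS2 (promoter, chr1:150459659-150459958): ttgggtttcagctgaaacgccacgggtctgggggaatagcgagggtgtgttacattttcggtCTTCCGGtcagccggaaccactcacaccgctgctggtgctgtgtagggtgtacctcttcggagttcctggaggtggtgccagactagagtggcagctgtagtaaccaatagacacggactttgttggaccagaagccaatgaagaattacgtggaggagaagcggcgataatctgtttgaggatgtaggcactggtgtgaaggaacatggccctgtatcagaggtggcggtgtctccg
EEF1A1 (promoter, chr6:74230646-74230945): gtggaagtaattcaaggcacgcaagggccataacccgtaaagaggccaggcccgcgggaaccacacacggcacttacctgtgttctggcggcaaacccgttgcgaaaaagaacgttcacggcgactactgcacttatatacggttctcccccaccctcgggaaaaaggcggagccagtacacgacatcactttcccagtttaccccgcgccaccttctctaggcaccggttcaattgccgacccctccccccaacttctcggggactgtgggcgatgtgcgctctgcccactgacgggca
EEF1A1 (59.5 kb upstream, chr6:74290108-74290407): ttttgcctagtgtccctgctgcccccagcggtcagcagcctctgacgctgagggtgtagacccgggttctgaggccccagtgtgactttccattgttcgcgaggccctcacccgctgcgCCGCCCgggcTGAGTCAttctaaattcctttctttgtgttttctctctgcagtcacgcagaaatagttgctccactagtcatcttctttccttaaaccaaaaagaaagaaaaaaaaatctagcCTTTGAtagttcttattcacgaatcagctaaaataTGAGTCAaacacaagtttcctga
RARS (76.4 kb upstream, WWC1 intron 8, chr5:167836941-167837240): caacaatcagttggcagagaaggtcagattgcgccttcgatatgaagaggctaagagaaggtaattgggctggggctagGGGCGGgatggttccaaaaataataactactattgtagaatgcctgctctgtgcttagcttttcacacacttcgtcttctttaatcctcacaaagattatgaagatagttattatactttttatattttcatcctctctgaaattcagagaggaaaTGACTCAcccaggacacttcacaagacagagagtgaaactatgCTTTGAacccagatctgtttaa
The EIF4G1 window held 2 E-boxes, 3 SP1 matches and 1 TCF7L2 match, and the EIF5A2 window 2 E-boxes, 4 SP1 matches and 1 ETS match. In EIF3A there were 1 E-box, 2 SP1 matches and 1 NRF1 match. The TARS2 window held 1 ETS match, and the promoter window of EEF1A1, one of the most highly transcribed genes of most cells, held none of the motifs searched. In contrast, the distant EEF1A1 window held 2 AP-1 matches with 1 TCF7L2 and 1 SP1 match, and the RARS window 1 match to each of the same motifs.

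To determine which of these genes had a region in both ChIP replicates, peaks whose centres lay under 400 bp apart were called shared. In replicate 1, 30 of 50 peaks of translation genes were shared (60.0%, interval 45.2 to 73.6), against 63.6% of all peaks of that list. In replicate 2, 31 of 47 were shared (66.0%, interval 50.7 to 79.1), against 45.5% of all peaks. Replicate 1 peaks of these genes were therefore shared about as often as any peak of that list, and in replicate 2 the share was above that of the whole list. Near promoters, where the peak centre lay up to 1 kb from the transcription start site (TSS) of the assigned gene, 23 of 37 replicate 1 peaks were shared (62.2%, against 63.1% of all such peaks at protein-coding genes) and 24 of 35 replicate 2 peaks (68.6%, interval including the 55.7% of all such peaks).

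Shared regions carried the names of 26 of these genes. Of the 116 genes in the reference annotation that match the pattern, this is 22.4% (interval 15.2 to 31.1), against 11.7% of 19101 protein-coding genes. The 116 include methyltransferase genes of elongation factors (EEF2KMT, EEF1AKNMT and the EEF1AKMT genes), looked up under these newer symbols only. The lists use older names, so a peak under an earlier name of these genes would be missed. For shared regions within 1 kb of the TSS the count was 24 genes, against a background of 6.8%. By the start of the canonical transcript in place of the deposited assignment, an alternative chosen after seeing the data, 28 of the 116 had a shared region within 1 kb, against 7.68% of 18992 genes. A peak in either replicate was assigned to 51 of the 116, against 25.7% of protein-coding genes. The list was chosen with earlier results of these data known and was not tested, and how far these shares follow gene activity or base composition was not tested.

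Most of these regions lay at promoters. Of the shared regions of translation genes, 23 of 30 in replicate 1 lay within 1 kb of the TSS (76.7%, interval 57.7 to 90.1), against 37.0% of all shared peaks, and 24 of 31 in replicate 2 (77.4%), against 36.9%. At these 23 promoters the peak centres lay between -181 and 241 bp of the TSS in replicate 1 and between -204 and 281 bp in replicate 2 (negative values are upstream). The peak itself covered the TSS in 21 of 23 cases in each replicate and in 19 in both, against 73.1% of all shared promoter regions of protein-coding genes in replicate 1 and 85.3% in replicate 2. EIF4B and GARS in replicate 1, and EEF1E1 and PABPC4 in replicate 2, were the exceptions, with peaks wholly downstream of the TSS.

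**Figure D1:**
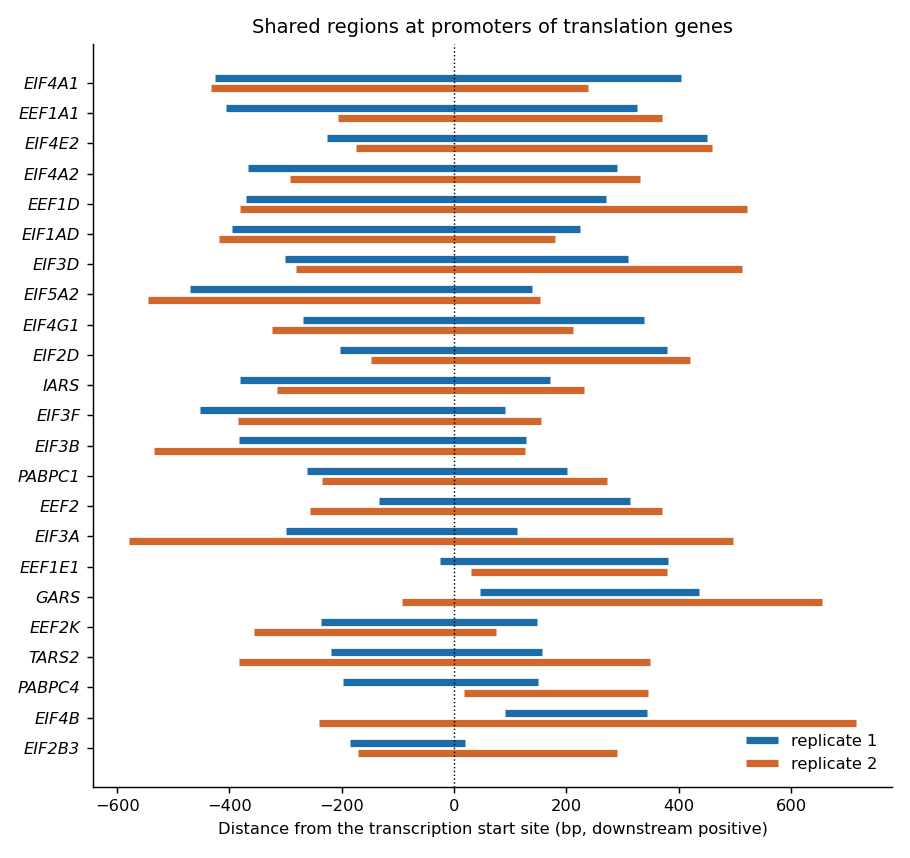
Each bar spans 1 peak, drawn around its deposited distance from the TSS (bp, x axis), for the 23 shared promoter regions, ordered by replicate 1 width, with replicate 1 above replicate 2. Centres lie between -204 and 281 bp in both replicates, and 19 regions cross the TSS in both.

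Replicate 1 peaks at shared promoters of translation genes had a median width of 542 bp, against 404 bp for all 1341 shared promoter regions of protein-coding genes, and 17 of 23 exceeded that background median. In replicate 2 the medians were 624 and 621 bp, and 12 of 23 exceeded the background median. The same regions were wider in replicate 2 in only 12 of 23 cases (52.2%), with a median ratio of replicate 2 to replicate 1 of 1.1, against 88.6% and 1.51 for the background. The promoter regions of translation genes were thus wider in replicate 1 about as often as in replicate 2, but their ratios ran from 0.787 to 3.78. The lowest ratio was that of EEF1A1, where replicate 2 had a further peak beside the promoter peak. Over all 30 shared regions, distant ones included, 19 were wider in replicate 2 and the median ratio was 1.29. The log10 widths of the 2 replicates had a Pearson correlation of 0.156 over the 23 promoter regions, against 0.354 over all 1341, and of 0.0388 over the 30 regions, against 0.491 over all 3984 shared regions, points that share libraries and are not independent replicates.

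**Figure D2:**
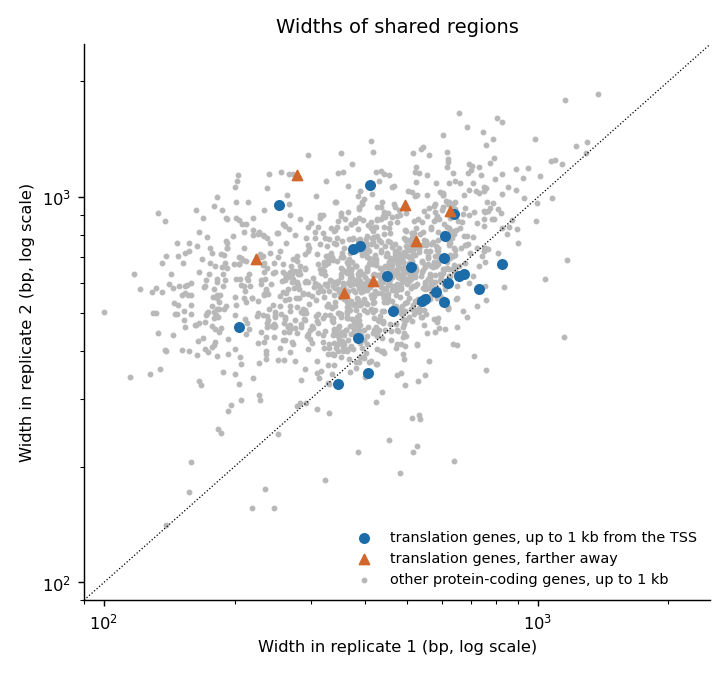
Peak width in replicate 2 (bp, log y axis) against width in replicate 1 (bp, log x axis) for shared regions; the dotted line marks equal widths. Blue points (translation genes, up to 1 kb from the TSS) lie on both sides of the line, 12 of 23 above it, whereas 88.6% of all promoter regions of protein-coding genes lie above it.

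Among initiation factors, the eIF4 group had the most genes with a shared region, 5 of 12 (41.7%, interval 15.2 to 72.3), against 11.7% of protein-coding genes, with an interval that overlaps those of the other initiation groups. These factors bind the cap and unwind the mRNA leader. EIF4A1, the main DEAD-box helicase of the cap complex, had the widest replicate 1 promoter peak of the class, 829 bp (chr17:7475600-7476427, centre -11 bp), and a peak of 672 bp in replicate 2 (chr17:7475592-7476262, -97 bp). Its paralog EIF4A2 had peaks of 658 bp (chr3:186500995-186501651, -38 bp) and 624 bp (chr3:186501070-186501692, 20 bp) in replicates 1 and 2. EIF4G1, the scaffold that holds the cap-binding protein and the helicase together, had peaks of 607 bp (chr3:184032022-184032627, 34 bp) and 535 bp (chr3:184031961-184032494, -56 bp). All 3 of these promoters had the wider peak in replicate 1.

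EIF4E2, a cap-binding relative of EIF4E that is linked to repression of translation, had peaks of 677 bp (chr2:233415072-233415747, 112 bp) and 633 bp (chr2:233415124-233415755, 142 bp), again wider in replicate 1. The 5′ exon of EIF4B, a cofactor of the helicase, gave the opposite picture, with 253 bp in replicate 1 (chr12:53400134-53400385, 217 bp) and 956 bp in replicate 2 (chr12:53399803-53400757, 238 bp), a ratio of 3.78. EIF4E itself, the cap-binding protein, had a peak in replicate 1 only, of 300 bp (chr4:99850212-99850510, -118 bp). EIF4A3, the helicase paralog of the exon junction complex, also had a peak in replicate 1 only, of 248 bp (77 bp). EIF4H, which aids the helicase, had peaks in both lists that did not meet, a promoter peak of 463 bp in replicate 2 (-33 bp) and 2 intergenic peaks of 164 and 160 bp in replicate 1, at -35790 and -19937 bp. No peak was assigned to any of the 4 listed eIF4E regulators, among them the EIF4EBP genes, whose products hold EIF4E away from the scaffold. Only 25.7% of all protein-coding genes had a peak in either list. For so few genes, the interval of the share with a shared region (0 of 4) reached 60.2%.

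The eIF3 complex, which bridges the small subunit and the mRNA, had peaks for 11 of 14 subunit genes, against 25.7% of protein-coding genes, and shared regions for 4 (28.6%, interval 8.39 to 58.1), against 11.7%. The 11 include EIF3C and EIF3CL, whose peaks are uncertain (below). EIF3A, the largest subunit, had 411 bp in replicate 1 (chr10:120840223-120840632, -93 bp) and 1075 bp in replicate 2 (chr10:120839839-120840912, -41 bp). EIF3B, the other central scaffold subunit, had 511 bp (chr7:2394093-2394602, -127 bp) and 660 bp (chr7:2393941-2394599, -204 bp). The region of EIF3D, a subunit that can itself contact the cap, measured 612 bp (chr22:36924968-36925578, 4 bp) and 794 bp (chr22:36924765-36925557, 116 bp). For EIF3F the widths were nearly equal, 542 bp (chr11:8008416-8008956, -181 bp) and 539 bp (chr11:8008484-8009021, -115 bp).

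Of the other eIF3 subunits, 7 had peaks in 1 list each and EIF3G, EIF3L and EIF3M had none. EIF3I, EIF3J, EIF3C and EIF3CL were in the replicate 1 list, where their peaks measured 134 to 232 bp, and EIF3E, EIF3H and EIF3K in the replicate 2 list. EIF3E had a promoter peak of 780 bp in replicate 2 (chr8:109260588-109261366, -18 bp) and a further peak of 573 bp at 5665 bp, within its first intron. EIF3C and EIF3CL are nearly identical copies, so reads there cannot be placed with certainty and the genes are reported as uncertain.

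Of the genes that bring in the initiator tRNA, EIF2D and EIF2B3 had shared regions, 2 of 11. This was 18.2% (interval 2.28 to 51.8), against 11.7% of protein-coding genes. EIF2D, which can deliver tRNA to the ribosome without eIF2, had 583 bp (chr1:206785526-206786107, 88 bp) and 569 bp (chr1:206785485-206786052, 136 bp) in replicates 1 and 2. EIF2B3, a subunit of the exchange factor that recharges eIF2 with GTP, had the narrowest shared replicate 1 promoter peak, 205 bp (chr1:45452376-45452579, -83 bp), and 461 bp in replicate 2 (chr1:45452106-45452565, 59 bp). EIF2A, EIF2B2 and EIF2B5 had peaks in replicate 2 only, the widest of 762 bp at EIF2A (chr3:150264155-150264915, -39 bp) and 661 bp at EIF2B5 (chr3:183852986-183853645, 505 bp).

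EIF2AK1, the heme-regulated kinase that shuts down initiation by phosphorylating eIF2, differed from these in position. Its shared region was intergenic, 18.1 kb upstream, with 418 bp in replicate 1 (chr7:6116747-6117163) and 605 bp in replicate 2 (chr7:6116699-6117302), while a promoter peak of 385 bp was found in replicate 2 only (chr7:6098502-6098885, 167 bp). EIF2AK3, the kinase of the endoplasmic reticulum stress response, had a promoter peak of 571 bp in replicate 2 only.

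In the group named after eIF1, eIF1A and eIF5, 2 of 10 genes had a shared region (20.0%, interval 2.52 to 55.6), against 11.7% of protein-coding genes. EIF5A2, a paralog of the hypusine-bearing factor EIF5A that helps ribosomes past difficult peptide bonds, had 608 bp (chr3:170626289-170626895, -166 bp) and 697 bp (chr3:170626275-170626970, -196 bp). EIF1AD, named for its eIF1A-like domain, had 620 bp (chr11:65769413-65770031, -85 bp) and 599 bp (chr11:65769459-65770056, -120 bp). EIF5A itself had a peak in replicate 1 only, of 310 bp (chr17:7210106-7210414, -58 bp), as did EIF1, of 211 bp.

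For elongation factors, 9 of 11 replicate 1 peaks were shared (81.8%, interval 48.2 to 97.7, which includes the 63.6% of all peaks), although 5 of the 9 belonged to EEF1A1 alone. EEF1A1, which carries aminoacyl-tRNA to the ribosome, had 6 peaks in replicate 1 and 7 in replicate 2, more than any other gene of the pattern. Its promoter region measured 733 bp in replicate 1 (chr6:74230430-74231161, -40 bp) and 577 bp in replicate 2 (chr6:74230387-74230962, 81 bp). In replicate 2 a separate peak of 638 bp followed in intron 1 (chr6:74229711-74230347, 726 bp), ending just short of the promoter peak. The 577 bp leave this neighbour out, so the narrower width in replicate 2 depends on how the peaks were split.

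The other 4 shared regions of EEF1A1 were wider in replicate 2. The region over its last exon, annotated as 3′ UTR, had 278 bp in replicate 1 (chr6:74225769-74226045, 4848 bp) and 1142 bp in replicate 2 (chr6:74225344-74226484, 4841 bp), a ratio of 4.11 and the widest peak among the shared regions of the class. A region at -2836 bp had 224 bp (chr6:74233480-74233702) and 690 bp (chr6:74233194-74233882, -2783 bp). Far upstream, near 59.5 kb, lay a region of 494 bp (chr6:74290011-74290503) and 954 bp (chr6:74289948-74290900), and near 64.6 kb one of 357 bp (chr6:74295172-74295527) and 564 bp (chr6:74295255-74295817). The peaks seen once were 161 bp wide at 6497 bp in replicate 1 (chr6:74224179-74224338) and 409 bp wide at -43676 bp in replicate 2 (chr6:74274228-74274635). Processed copies of EEF1A1 are spread over the genome, so reads within its exons may have been placed with less certainty than those of the intergenic regions.

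**Figure D3:**
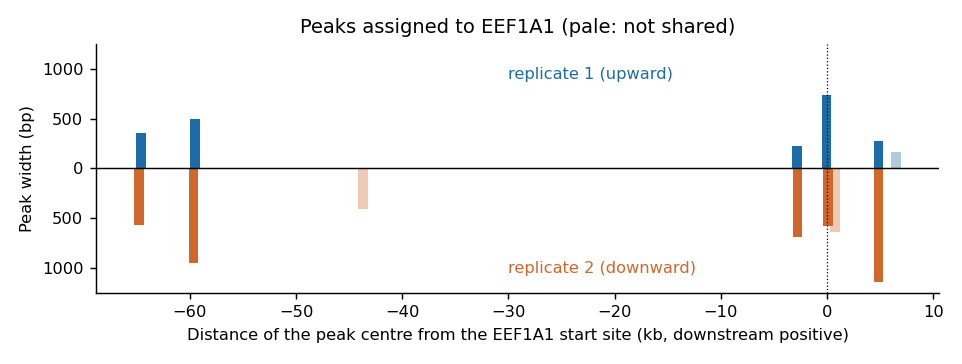
Peaks assigned to EEF1A1 by distance of their centre from the start site (kb, x axis), with bar height giving peak width (bp), replicate 1 upward and replicate 2 downward, and bars drawn wider than scale along x. The 5 dark positions are shared, at the promoter, over the last exon, at about 2.84 kb upstream and at about 59.5 and 64.6 kb upstream; pale bars mark the 3 peaks that were not shared.

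Among the other elongation factors, EEF1D, a subunit of the exchange factor that reloads eEF1A with GTP, had 641 bp (chr8:144679289-144679928, -50 bp) and 903 bp (chr8:144679037-144679938, 71 bp) in replicates 1 and 2. EEF2, the factor that moves the ribosome by 1 codon, had 448 bp (chr19:3985148-3985594, 90 bp) and 626 bp (chr19:3985092-3985716, 57 bp). EEF2K, the kinase that inactivates eEF2, had 385 bp (chr16:22217357-22217740, -44 bp) and 432 bp (chr16:22217236-22217666, -141 bp). The factor and its inhibitor thus both had a shared promoter region.

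EEF1E1, which also belongs to the multisynthetase complex, had 407 bp (chr6:8102448-8102853, 178 bp) and 349 bp (chr6:8102450-8102797, 205 bp). EEF1B2 had a peak of 234 bp in replicate 1 only (328 bp). Of the release factors, ETF1, which reads all stop codons, had a promoter peak in replicate 2 only, of 669 bp (chr5:137878667-137879334, -11 bp), and no peak was assigned to GSPT1, its GTPase partner.

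The poly(A)-binding proteins, which join the mRNA tail to the cap complex, had shared regions at 2 of 8 genes. This was 25.0% (interval 3.19 to 65.1), against 11.7% of protein-coding genes. PABPC1, the main cytoplasmic form, had a promoter region of 463 bp (chr8:101734116-101734577, -31 bp) and 507 bp (chr8:101734044-101734549, 19 bp), and an intergenic region of 523 bp (chr8:101801004-101801525) and 772 bp (chr8:101800973-101801743) some 66.9 kb upstream. PABPC4 had peaks of 346 bp (chr1:40042373-40042717, -24 bp) and 327 bp (chr1:40042177-40042502, 182 bp), with centres 205.5 bp from each other, the largest gap among regions assigned to the same gene in both lists. PABPC4L had a single peak of 198 bp, 336 kb from its TSS, in replicate 2 only.

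Few tRNA synthetase genes had a shared region, 3 of 18 cytosolic (16.7%, interval 3.58 to 41.4) and 2 of 17 mitochondrial genes (11.8%, interval 1.46 to 36.4), shares close to the 11.7% of all protein-coding genes. GARS, which charges glycine tRNA in both the cytosol and mitochondria, had 389 bp (chr7:30634229-30634616, 241 bp) and 747 bp (chr7:30634090-30634835, 281 bp) in replicates 1 and 2. IARS, the isoleucine enzyme, had 551 bp (chr9:95055869-95056418, -105 bp) and 546 bp (chr9:95055808-95056352, -42 bp). RARS, the arginine enzyme, had its shared region 76.4 kb upstream, within intron 8 of WWC1, with 629 bp (chr5:167836777-167837404) and 919 bp (chr5:167836572-167837489). In replicate 1 RARS also had a promoter peak of 429 bp (chr5:167913352-167913779, 102 bp) and a second WWC1 peak of 195 bp (chr5:167838334-167838527), neither found in replicate 2.

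TARS2, the mitochondrial threonine enzyme, had 376 bp (chr1:150459621-150459995, -32 bp) and 732 bp (chr1:150459458-150460188, -17 bp). EARS2, the mitochondrial glutamate enzyme, was named in replicate 2 only, with 601 bp (chr16:23568248-23568847, 149 bp), and its partner in replicate 1, of 272 bp (chr16:23568784-23569054), was assigned to the neighbour UBFD1, with centres 371.5 bp apart. AARS2, HARS2, LARS2, MARS2 and the cytosolic NARS had peaks in replicate 1 only. The widest of these were 417 bp at HARS2 (chr5:140070928-140071343, 124 bp), 404 bp at MARS2 (chr2:198569898-198570300, 71 bp) and 300 bp at NARS (chr18:55288896-55289194, 132 bp). No peak was assigned to EPRS.

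**Figure D4:**
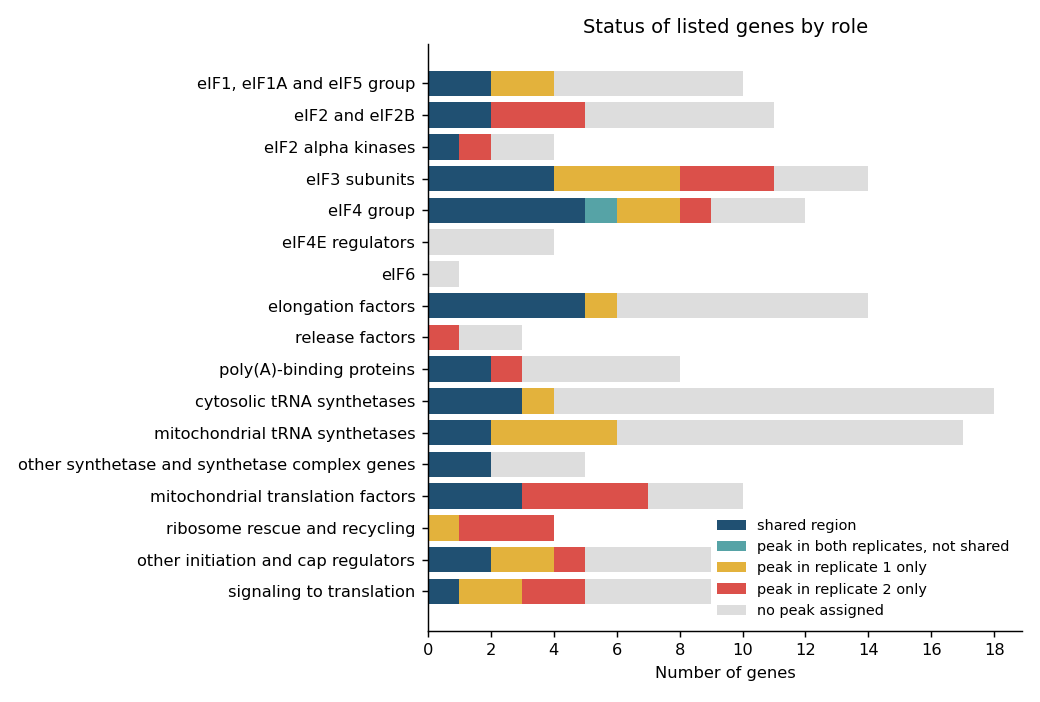
Number of genes (x axis) of each role with a shared region, with peaks in both replicates that were not shared, with a peak in 1 replicate only, or with no peak; roles from the synthetase complex downward are pathway genes outside the pattern. Shared regions are found for 5 of 12 eIF4 genes and 5 of 14 elongation genes, and for 3 of 18 cytosolic and 2 of 17 mitochondrial synthetase genes. The elongation genes include the kinase EEF2K and methyltransferases of the factors. The share over all protein-coding genes is 11.7%.

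The peaks of a single replicate differed between the libraries in width. The 14 unshared promoter peaks of translation genes in replicate 1 had a median of 241 bp, against 265.5 bp for all 784 unshared promoter peaks of protein-coding genes, and the 11 in replicate 2 a median of 611 bp, against 496 bp. Besides those named above, the widest unshared replicate 2 peak was that of EIF3H, 611 bp (chr8:117767720-117768329, 38 bp). Replicate 2 also held intronic peaks more than 5 kb from the TSS in EIF3H, of 184 bp, and in EIF4G3, a paralog of EIF4G1, of 567 bp (chr1:21348748-21349313, 88846 bp).

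Translation genes outside the pattern gave a similar share. Of 37 further pathway genes, 5 had peaks in replicate 1 only, 10 in replicate 2 only and 14 in neither. A shared region was assigned to 8 (21.6%, interval 9.83 to 38.2), against 11.7% of protein-coding genes. AIMP2, the scaffold of the multisynthetase complex, had the widest, with 992 and 869 bp in replicates 1 and 2 (-22 and 15 bp from the TSS), and FARSB, a subunit of the phenylalanine enzyme, had 192 and 657 bp. The mitochondrial factor genes among them were 3 in number: MTIF2, for initiation, with 462 and 635 bp, and GFM1 and GFM2, for translocation and ribosome recycling, with 413 and 558 bp and with 386 and 730 bp. TPT1, a growth-related protein whose mRNA is itself under translational control, had 428 and 479 bp, and RPTOR, the scaffold of mTORC1, 588 and 578 bp. LARP1, which binds the mRNAs of translation factors downstream of mTORC1, had 2 shared regions, at -30180 and 42119 bp from the deposited TSS in replicate 1; the second lay within 1 kb of its canonical GENCODE start, so its distance depends on the start used.

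To compare sequence across the class, the 7 motifs above and TGATGCAA, the ATF4 element of amino acid response genes, were counted in 300-bp windows at the centre of the replicate 1 peak. E-boxes were found in 9 of 23 promoter regions of translation genes (39.1%, interval 19.7 to 61.5), against 32.7% of all 1341 shared promoter regions of protein-coding genes. SP1 matches were found in 18 of 23 (78.3%), against 68.4%, and ETS matches in 7 (30.4%), against 27.4%. Each of these shares had an interval that included the share of all promoter regions. NRF1 matches occurred in 1 of 23 (4.35%, against 9.92%), TCF7L2 matches in 3 (13.0%, against 8.35%) and YY1 matches in 2 (8.7%, against 5.29%). AP-1 matches were found in 0 of 23, which leaves an upper bound of 14.8%, against 5.67%, and ATF4 elements in 0 of 23, against 0.373%. The promoter windows held the E-box in EIF5A2 and EIF4G1 (2 each), EIF3A, EIF3F, EIF4B, EIF2B3, IARS, EEF2K and EEF1E1.

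The 7 shared regions more than 1 kb from the deposited TSS differed in make-up from the promoter regions, but they were few, and 4 of them belonged to EEF1A1. AP-1 matches occurred in 3 of the 7 (interval 9.9 to 81.6), at EEF1A1 (59.5 kb upstream), RARS and EIF2AK1. The share over all 2509 shared regions more than 1 kb from a TSS was 53.7%. TCF7L2 matches occurred in 4 of the 7 (interval 18.4 to 90.1), against 35.8%, and SP1 matches in 3 (42.9%, interval 9.9 to 81.6), against 13.6%. The AP-1 and TCF7L2 intervals overlapped those of the promoter regions (up to 14.8, and 2.78 to 33.6). The EEF1A1 region at -2836 bp held 1 E-box and 1 SP1 match but neither AP-1 nor TCF7L2. It lay within 1 kb of other annotated starts of EEF1A1 and EEF1A1-AS1, so its class depends on the start used. The 7 regions had a median GC content of 44.7%, against 45.0% for all distant regions. For the promoter regions the median was 63.7%, against 65.7%. In both classes, therefore, the windows of translation genes were close in base composition to other regions at the same kind of position.

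**Figure D5:**
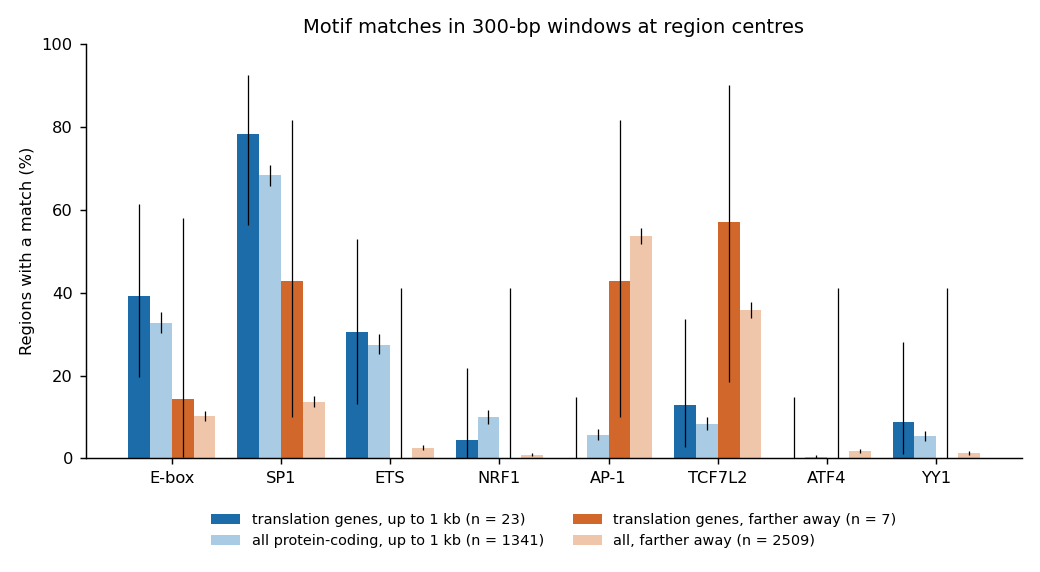
Share of shared regions (%, y axis) with at least 1 match to each motif (x axis) in the 300 bp at the replicate 1 peak centre; lines are 95% Clopper-Pearson intervals. E-box, SP1 and ETS shares at promoters of translation genes (39.1, 78.3 and 30.4%) have intervals that include those of all promoter regions (32.7, 68.4 and 27.4%), and AP-1 matches are seen in 3 of 7 distant regions and 0 of 23 promoter regions.

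The 300-bp promoters of the RefSeq table (GRCh38, 250 bp before to 50 bp after the start) were also searched. Of the 23 genes with a shared promoter region in replicate 1, 19 had an entry. EARS2, named through replicate 2, was not among the 23. The E-box was found in 7 of 19 (36.8%, interval 16.3 to 61.6), against 23.2% of 1109 genes with a shared promoter region and 8.91% of all 15278 promoters. ETS matches were found in 31.6%, against 28.5% and 14.4%. TCF7L2 matches were found in 10.5%, against 7.66% and 10.8%. The E-box and ETS intervals of translation genes included the share of all genes with a shared promoter region, and the ETS interval also that of all promoters. A match is a stretch of letters, not evidence of a bound factor.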

How the data were processed

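APC ChIP-seq peaks of 2 replicates, each called by the authors with MACS2 against its own input after alignment to hg19 with BWA and annotated with RefGene to the nearest TSS, were used as deposited. The authors set the score threshold so as to keep peaks at AXIN2, DKK1 and MYC, which bears on how many weak peaks each list holds. No source used here gives tool versions. In each list the deposited Peak Score equals End minus Start plus 2 in all 6263 and 8393 rows, so this score was read as peak width; the authors' files give no p-value, fold enrichment or count, and depth is unknown. The deposited table of distances between replicates was used only to check the sharing calls. Peaks with centres under 400 bp apart were called shared, as the deposited table measures distance between centres; the study's methods speak of summits, which the lists do not give.

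Members, gene lists and motifs were chosen with earlier results of these data known. Genes named are all with a shared region or at least 2 peaks, the 5 widest unshared peaks per replicate, peaks over 5 kb from the TSS, and EIF4E, EIF4G1, EIF4A1, EIF2S1, EEF1A1, EEF2, PABPC1, ETF1, GSPT1 and EPRS; the other members were named after their values were seen, so that each is accounted for. Backgrounds are all peaks of a list or 19101 genes that are protein-coding in both RefSeq and GENCODE 44 (GRCh37). No test was run. Sequences came from GRCh37 (hg19), and promoters of the motif shares from RefSeq (GRCh38). Sequences of chromosome 8 regions were not printed. The NRF1 motif was GCGC, any 2 bases and GCGC. Sharing and motif searches were tested on simulated data. Python 3.11.15, pandas 2.3.3, NumPy 2.4.6, SciPy 1.17.1 and pysam 0.24.0 were used.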

Additional observations from a re-analysis of the deposited data

How the results depend on the processing

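The number of genes with a shared region was 26, and 20 to 28 under a centre distance of 100, 200 or 1000 bp, overlap of at least 1 bp, the wider 50% of each list, or the start of the canonical transcript (an alternative chosen after seeing the data); any annotated transcript start gave 32. Without either replicate, genes with a peak in the remaining list numbered 37 to 40. With the wider 50% of each list, 77.8% of replicate 1 peaks were shared, against 60.0% in the full list, and with a centre distance under 100 bp, 48.9% of replicate 2 peaks, against 66.0%. The ATF4 element was found in 5.26% of promoters and in 0% of windows at the region centre. The share of shared regions near the TSS stayed between 66.7% and 83.3% under the alternatives run, with 74.0% to 74.5% for all peaks of 1 replicate. Of 37 alternative values, 33 stayed within the limit set for each result. That limit was wide, as a fall from 60.0% to 46.0% of replicate 1 peaks shared counted as within it. So did NRF1 matches in 15.8% of promoters and 4.35% of windows at the region centre. The tally therefore says little about how stable each value is. No paired analysis was possible because no value of the input libraries was used and no test between groups was run. With 2 ChIP replicates and unknown depth, a gene without a peak cannot be told from one below the caller's threshold.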

Other observations

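Assignment to the nearest TSS hides some translation genes that share a promoter with a neighbour. EIF2S1, the α subunit of eIF2 and the target of its stress kinases, had no peak under its own name, but a shared region assigned to ATP6V1D lay 258 bp from its start in replicate 1 (345 bp wide, chr14:67826615-67826958) and 312 bp in replicate 2 (835 bp wide, chr14:67826316-67827149). EIF2B1, a subunit of the exchange factor of eIF2, lay under a region assigned to GTF2H3, of 681 and 677 bp in replicates 1 and 2, with centres 41 and 0 bp from its start. YARS, the tyrosine enzyme, had its start 22 and 34 bp from a region assigned to S100PBP, of 247 and 460 bp. A region assigned to METTL1, of 390 and 760 bp, lay 566 and 606 bp from the start of EEF1AKMT3, a methyltransferase of eEF1A, and a region assigned to RBM18, of 585 and 475 bp, lay 30 and 105 bp from MRRF, the mitochondrial ribosome recycling factor. WARS, the tryptophan enzyme, had its canonical start 1137 and 1057 bp from a shared region assigned to WDR25.

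Peaks in 1 replicate gave further cases. The HARS2 peak of replicate 1 also lay 180 bp from the start of HARS, the cytosolic histidine enzyme, and replicate 2 peaks assigned to ORC3 and TBCK lay 61 and 231 bp from the starts of RARS2 and AIMP1. With canonical starts in place of the nearest TSS, 28 genes of the pattern had a shared region within 1 kb, against 7.68% of 18992 protein-coding genes. Of the 23 shared promoter regions of translation genes in replicate 1, 3 had canonical protein-coding starts on both strands (13.0%, interval 2.78 to 33.6), against 15.3% of all such regions. Any annotated transcript start within 1 kb was also considered. The protein-coding neighbours at shared promoters were then BANF1 at EIF1AD, SNX8 at EIF3B, TIGD5 at EEF1D, TIGD1 at EIF4E2 and UBFD1 at EARS2. EEF1E1-BLOC1S5 also started near the EEF1E1 region. Starts of non-coding genes lay within 1 kb of the regions at EIF3A, EIF4A1, EIF4A2, EIF4E2, EIF5A2, EEF1E1 and GARS.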
